A study of Mus musculus with 32 samples.

Results

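RNA levels of 10 genes of the DYRK1A, RCAN and calcineurin-NFAT pathway were compared in mouse cerebral cortex. The 10 genes were taken by symbol from a table of 55401 genes: the kinase gene Dyrk1a, the calcineurin regulators Rcan1, Rcan2 and Rcan3, the calcineurin subunits Ppp3ca, Ppp3cb and Ppp3r1, and the transcription factor genes Nfatc2, Nfatc3 and Nfatc4. All 10 were found and all 10 passed the filter on low counts that left 16042 genes for testing. Dyrk1a and Rcan1 lie on the stretch of chromosome 16 that is present in 1 additional copy in both aneuploid genotypes, and the other 8 genes have the normal copy number.

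The cortex was taken at 6 weeks of age from 10 Ts65Dn;Df(17)2 mice, 10 Dp(16)1/Df(16)8 mice and 12 +/+ mice, with as many females as males in each genotype by label. Ts65Dn mice carry a freestanding extra chromosome that joins distal chromosome 16 to the centromeric end of chromosome 17, while Dp(16)1 mice carry the chromosome 16 stretch as a duplication inside the chromosome. The deficiencies, Df(17)2 on chromosome 17 and Df(16)8 on chromosome 16, are known to return the parts that differ between these lines to the normal dose, so that both aneuploid genotypes add nearly the same genes, in one case on a separate chromosome. Both aneuploidies are constitutional, so every cell type of the tissue carries them, and +/+ animals carry neither the aneuploidies nor the deficiencies. The series asks what gene dosage does and what the extra chromosome itself does.

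Calcineurin is a phosphatase switched on by calcium and calmodulin. It removes phosphates from NFAT transcription factors, which then enter the nucleus, and DYRK1A and other kinases add phosphates back so that NFAT leaves it. RCAN proteins bind calcineurin and can inhibit it. DYRK1A and RCAN1 are both encoded on human chromosome 21, and their combined excess dose has been proposed to lower NFAT activity in Down syndrome. RNA levels, which were measured here, do not report the activity or the location of these proteins.

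The libraries held 5795479 to 11189548 counts, the median library being 8213596 for Ts65Dn;Df(17)2, 7753840 for Dp(16)1/Df(16)8 and 7547440 for +/+. All 10 markers of cortical excitatory neurons had counts in every library, and their summed level had a median of 1872 CPM (counts relative to the library total, scaled; range 1189 to 2316) in Ts65Dn;Df(17)2, 1866 CPM (1009.9 to 3106) in Dp(16)1/Df(16)8 and 2847 CPM (1229.6 to 3119) in +/+. The median for 6 genes listed as interneuron markers (Gad1, Gad2, Slc32a1, Pvalb, Sst and Vip) was 1145 CPM in Ts65Dn;Df(17)2, 1126 CPM in Dp(16)1/Df(16)8 and 684 CPM in +/+, with overlapping ranges. This sum was not separated from the striatal content given next, so it does not measure cortical interneurons alone. Markers of striatal medium spiny neurons, the main neurons of the tissue beneath the cortex, were also present: the summed level of all 19 ran between 1168 and 4270 CPM in Ts65Dn;Df(17)2, between 497 and 4586 CPM in Dp(16)1/Df(16)8 and between 371 and 4768 CPM in +/+, and their median was 3171, 3145 and 995 CPM in these genotypes in that order. Of these markers, Ido1 and Isl1 were at 0 in some Dp(16)1/Df(16)8 library and Isl1 in some +/+ library. Summed immediate early genes, which respond to neuronal activity, had medians of 573 CPM in Ts65Dn;Df(17)2, 611 CPM in Dp(16)1/Df(16)8 and 870.3 CPM in +/+, with overlapping ranges. The part of these differences in the results below was not tested except where a fit with the striatal marker level is given. In whole tissue, fewer cells of a type and less RNA per cell cannot be told apart. In 31 of 32 libraries Xist and the Y-linked genes matched the sex label. The exception, Dp(16)1/Df(16)8 replicate 2, a library labelled female, had 14 counts of Xist and 696 of Ddx3y.

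Windows of 250 bases upstream of annotated starts show where the NFAT core motif can be read in the genes at issue. They come from RefSeq on GRCm38.p6 and are given 5′ to 3′ on the gene's strand, in lower case with GGAAA and its reverse complement TTTCC in capitals. RefSeq gave 16 windows for 9 of the 10 genes, and those shown are both starts of Rcan1, the farthest downstream start of Dyrk1a, and the upstream start of Nfatc2, none of which overlaps an annotated exon of its gene.
Rcan1 downstream start, chr16:92400079-92400328, minus strand: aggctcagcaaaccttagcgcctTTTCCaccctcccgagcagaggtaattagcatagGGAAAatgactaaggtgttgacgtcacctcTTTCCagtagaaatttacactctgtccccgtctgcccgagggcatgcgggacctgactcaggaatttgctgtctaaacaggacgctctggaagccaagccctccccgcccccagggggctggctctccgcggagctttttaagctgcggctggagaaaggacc
Rcan1 upstream start, chr16:92466170-92466419, minus strand: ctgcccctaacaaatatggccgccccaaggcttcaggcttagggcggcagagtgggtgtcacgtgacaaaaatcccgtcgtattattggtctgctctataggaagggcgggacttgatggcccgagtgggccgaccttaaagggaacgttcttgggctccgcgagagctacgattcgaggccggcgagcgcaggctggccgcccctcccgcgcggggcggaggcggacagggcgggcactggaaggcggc
Dyrk1a downstream start, chr16:94611169-94611418, plus strand: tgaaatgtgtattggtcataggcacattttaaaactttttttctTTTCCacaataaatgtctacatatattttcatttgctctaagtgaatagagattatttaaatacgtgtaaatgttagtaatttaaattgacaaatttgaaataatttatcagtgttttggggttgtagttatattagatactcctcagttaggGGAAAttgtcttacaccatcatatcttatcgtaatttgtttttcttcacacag
Nfatc2 upstream start, chr2:168601658-168601907, minus strand: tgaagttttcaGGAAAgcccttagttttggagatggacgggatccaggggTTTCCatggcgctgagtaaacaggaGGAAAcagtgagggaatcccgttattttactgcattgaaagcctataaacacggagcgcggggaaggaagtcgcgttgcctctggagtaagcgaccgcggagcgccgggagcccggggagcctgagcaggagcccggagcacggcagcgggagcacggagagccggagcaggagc
The downstream Rcan1 window holds the motif 3 times, 1 of them as GGAAA and 2 as TTTCC, and the upstream window holds it 0 times. As background, transcripts from the downstream start of Rcan1 are known to be induced by NFAT. The Dyrk1a window shown holds 2 matches and the other Dyrk1a windows 0 and 1, while the Nfatc2 window shown holds 3 and the other 1. The Dyrk1a window shown lies within the gene, in intron sequence by the annotation, and has 27.2% G and C. Whether it acts as a promoter was not tested. The other Dyrk1a windows, at the 5′ end of the gene, have 74.4% each, overlap its exons and are not shown. Which of these starts is used in cortex was not tested. For Dyrk1a and Nfatc2 the window shown is the one with the most matches. The windows of Ppp3cb and Nfatc4, which are not shown, hold 3 each. Also not shown are the windows of Rcan2 (2, 0 and 0 matches), Rcan3 (1), Ppp3r1 (0) and Nfatc3 (1 and 0). Several of the windows not shown overlap no exon of their gene either. The motif is common: 55.6% of all 32851 windows of this length hold it at least once and 6.39% hold it 3 times or more. A match describes the letters of the window only. Counts per gene do not separate transcripts from different starts, so the levels below are sums over them.

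Dyrk1a, the kinase gene (ENSMUSG00000022897.15, GRCm38 chromosome 16, 94570010 to 94695517, plus strand), rose in both aneuploid genotypes. Its level was lowest at 175 CPM, had a median of 189 CPM and was highest at 200.3 CPM in Ts65Dn;Df(17)2. The lowest, median and highest values were 169, 194 and 207 CPM for Dp(16)1/Df(16)8 animals, against 119, 128 and 134 CPM for +/+ animals. Every aneuploid library was above every +/+ library. The mean was 188 ± 9.77 CPM in Ts65Dn;Df(17)2 and 189.7 ± 11.8 CPM in Dp(16)1/Df(16)8 (SD, n = 10 each), against 127 ± 5.21 CPM in +/+ (SD, n = 12). With p from edgeR's quasi-likelihood F test, adjusted by the Benjamini-Hochberg method over all 16042 genes, Dyrk1a was 1.48-fold higher in Ts65Dn;Df(17)2 than in +/+ (95% interval 1.40 to 1.55, adjusted p = 1.0e-13). It was 1.49-fold higher in Dp(16)1/Df(16)8 than in +/+ (95% interval 1.42 to 1.56, adjusted p = 7.9e-14). Both intervals contain 1.5, the ratio of gene copies.

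Rcan1, the calcineurin regulator (ENSMUSG00000022951.16, GRCm38 chromosome 16, 92391953 to 92470867, minus strand), also rose in both. Its lowest, median and highest levels were 59.6, 66.8 and 81.5 CPM in Ts65Dn;Df(17)2. They were 57.3, 63.0 and 78.3 CPM in Dp(16)1/Df(16)8 and 37.6, 45.7 and 53.2 CPM in +/+. Again no +/+ library reached the lowest aneuploid one, although the gap, between 57.3 CPM in Dp(16)1/Df(16)8 and 53.2 CPM in +/+, was narrower than for Dyrk1a. Means were 67.7 ± 6.56 CPM in Ts65Dn;Df(17)2 and 65.4 ± 7.03 CPM in Dp(16)1/Df(16)8 (SD, n = 10 each), against 46.1 ± 5.58 CPM in +/+ (SD, n = 12). By the same edgeR test Rcan1 was 1.47-fold higher in Ts65Dn;Df(17)2 than in +/+ (95% interval 1.35 to 1.61, adjusted p = 1.6e-07). The fold was 1.42 in Dp(16)1/Df(16)8 (95% interval 1.30 to 1.55, adjusted p = 1.5e-06). Rcan1 varied more between animals than Dyrk1a: its coefficient of variation within +/+ was 12.1%, against 4.09% for Dyrk1a, where counting error alone would give 5.45% and 3.26%.

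Dyrk1a and Rcan1 were the 2 of the 10 genes that rose in each aneuploid genotype, and 0 of the 10 fell. Of all tested genes, 1.75% rose in Ts65Dn;Df(17)2 and 0.418% rose in Dp(16)1/Df(16)8 against +/+. Genes whose libraries did not overlap in this direction made up 0.33% of the genes in Ts65Dn;Df(17)2 and 0.243% in Dp(16)1/Df(16)8. Both comparisons use the same 12 +/+ libraries. Among the 77 tested genes of the chromosome 16 stretch from Mrpl39 to Zbtb21 (84717576 to 97962622, bounds from background knowledge), ordered from the highest fold, Dyrk1a ranked 46 in Ts65Dn;Df(17)2 and 45 in Dp(16)1/Df(16)8, and Rcan1 ranked 50 and 59. The median fold of that stretch was 1.504 among Ts65Dn;Df(17)2 animals and 1.538 among Dp(16)1/Df(16)8 animals, so both genes stood below its median in both genotypes.

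**Figure D1:**
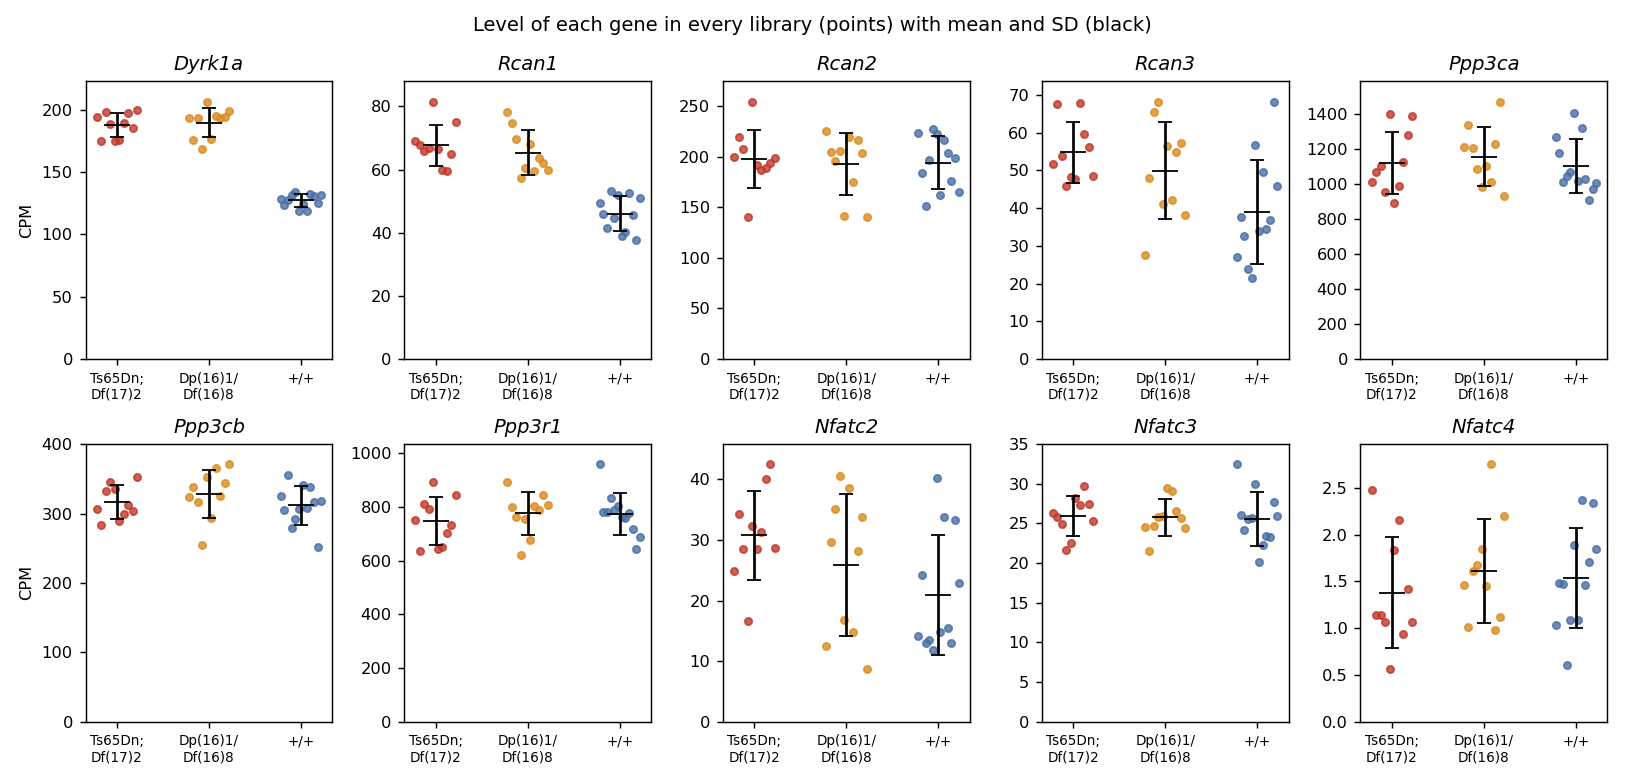
Level of each of the 10 genes in every library in CPM (vertical axis, from 0), by genotype along the horizontal axis, with Ts65Dn;Df(17)2 and Dp(16)1/Df(16)8 left of +/+. Points are libraries and the black marks are the mean and SD; in the Dyrk1a and Rcan1 panels every aneuploid library lies above every +/+ library, and in the other 8 panels the genotypes overlap.

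The aneuploid genotypes were also compared with each other, which asks whether a freestanding chromosome and a duplication within a chromosome give different levels. Dyrk1a was at 0.99 times its Dp(16)1/Df(16)8 level in Ts65Dn;Df(17)2 (95% interval 0.94 to 1.04) and Rcan1 at 1.04 times (95% interval 0.94 to 1.13). None of the 10 genes passed in this comparison: edgeR, DESeq2 and limma voom each called 0, and 0 had an unadjusted p under 0.05 in edgeR. Of all tested genes 0.0499% passed. The intervals of Nfatc2 (0.83 to 1.69) and Nfatc4 (0.63 to 1.21) were wider.

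The other RCAN genes have the normal copy number. Rcan2 (chromosome 17, 43801351 to 44039516), a brain-rich relative of Rcan1 that also binds calcineurin, had lowest, median and highest levels of 139.8, 196 and 254 CPM in Ts65Dn;Df(17)2. The values were 140.3, 203 and 225 CPM in Dp(16)1/Df(16)8 and 151, 197 and 228 CPM in +/+. The ranges overlapped almost wholly, and the fold was 1.02 in Ts65Dn;Df(17)2 (95% interval 0.90 to 1.16) and 0.99 in Dp(16)1/Df(16)8 (95% interval 0.88 to 1.13) against +/+. Neither difference passed in edgeR (adjusted p = 0.88 and 0.98).

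Rcan3 (chromosome 4, 135412308 to 135433853), the third family member, stood higher in aneuploid cortex without passing the test. Its lowest, median and highest levels were 45.7, 52.8 and 68.0 CPM in Ts65Dn;Df(17)2, 27.7, 51.4 and 68.2 CPM in Dp(16)1/Df(16)8, and 21.4, 35.7 and 68.1 CPM in +/+. All 10 Ts65Dn;Df(17)2 libraries and 9 of 10 Dp(16)1/Df(16)8 libraries exceeded the +/+ mean of 39.0 CPM, but the highest +/+ library matched the highest aneuploid ones. The fold was 1.41 in Ts65Dn;Df(17)2 (95% interval 1.13 to 1.76, edgeR adjusted p = 0.060) and 1.29 in Dp(16)1/Df(16)8 (95% interval 1.03 to 1.61, edgeR adjusted p = 0.33). The result in Ts65Dn;Df(17)2 sits at the threshold: it passed with DESeq2 (adjusted p = 0.032), with limma voom (adjusted p = 0.039) and in an edgeR fit of the 2 genotypes alone (adjusted p = 0.047). It also passed in edgeR without +/+ replicate 6 (adjusted p = 0.023), without +/+ replicate 11 (adjusted p = 0.013), and without Dp(16)1/Df(16)8 replicate 1 or 4 (adjusted p = 0.044 and 0.049). With the striatal marker level as a term in edgeR, its fold change in Ts65Dn;Df(17)2 was 0.22 on the log2 scale (SE 0.093, adjusted p = 0.30), against 0.50 without that term. With blocks of animals with neighbouring label numbers as terms in edgeR, it was 0.32 in Ts65Dn;Df(17)2 (adjusted p = 0.49) and 0.49 in Dp(16)1/Df(16)8 (adjusted p = 0.066). Ts65Dn;Df(17)2 animals were absent from most of these blocks, so this fit separates genotype from block only in part.

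The calcineurin subunits showed no difference that passed. Ppp3ca (chromosome 3, 136670124 to 136937727) encodes the catalytic subunit most abundant in brain, and its lowest, median and highest levels were 895, 1087 and 1399 CPM in Ts65Dn;Df(17)2, 930.1, 1154 and 1472 CPM in Dp(16)1/Df(16)8, and 909, 1038 and 1410 CPM in +/+. Ppp3cb (chromosome 14, 20499364 to 20546573), the other brain catalytic subunit, averaged 316 ± 24.2 CPM in Ts65Dn;Df(17)2 and 329 ± 34.7 CPM in Dp(16)1/Df(16)8 (SD, n = 10 each), against 312 ± 28.6 CPM in +/+ (SD, n = 12). Ppp3r1 (chromosome 11, 17159263 to 17200375), which encodes the regulatory calcium-binding subunit, averaged 746 ± 89.4 CPM in Ts65Dn;Df(17)2 and 776 ± 78.4 CPM in Dp(16)1/Df(16)8, against 775 ± 78.4 CPM in +/+, with the same numbers of animals. The genotypes overlapped for all 3 subunits. Their folds lay between 0.96 (Ppp3r1 in Ts65Dn;Df(17)2, 95% interval 0.88 to 1.05) and 1.05 (Ppp3cb in Dp(16)1/Df(16)8, 95% interval 0.97 to 1.14), and the intervals of all 6 comparisons with +/+ reached no higher than 1.19 and no lower than 0.88.

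Of the NFAT transcription factor genes, Nfatc2 (chromosome 2, 168476410 to 168601657) ranged widely between libraries. Its lowest, median and highest levels were 16.6, 29.9 and 42.5 CPM in Ts65Dn;Df(17)2, 8.64, 28.9 and 40.6 CPM in Dp(16)1/Df(16)8, and 11.8, 15.2 and 40.2 CPM in +/+. The medians of both aneuploid genotypes stood well above that of +/+, but each genotype spanned low and high libraries and the ranges overlapped. The fold was 1.47 in Ts65Dn;Df(17)2 (95% interval 1.04 to 2.06, edgeR adjusted p = 0.17) and 1.24 in Dp(16)1/Df(16)8 (95% interval 0.88 to 1.75, edgeR adjusted p = 0.61), and neither passed. With the striatal marker level as a term in edgeR, the log2 fold change of Nfatc2 in Ts65Dn;Df(17)2 was 0.063 (SE 0.091), against 0.55 without it, and in Dp(16)1/Df(16)8 it was -0.014 (SE 0.088), against 0.31. With the blocks of animal numbers as terms it was 0.32 in Ts65Dn;Df(17)2 and 0.51 in Dp(16)1/Df(16)8 (edgeR adjusted p = 0.69 and 0.21).

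Nfatc3 (chromosome 8, 106058840 to 106130537), the steadiest of the 3 NFAT genes, averaged 25.9 ± 2.49 CPM in Ts65Dn;Df(17)2 and 25.8 ± 2.30 CPM in Dp(16)1/Df(16)8 (SD, n = 10 each), against 25.6 ± 3.37 CPM in +/+ (SD, n = 12). Its fold was 1.01 in both aneuploid genotypes (95% interval 0.92 to 1.11 for Ts65Dn;Df(17)2 and 0.91 to 1.11 for Dp(16)1/Df(16)8). Exons of Nfatc3 overlap exons of Esrp2 on the other strand, and since the strand setting of the counting is not given in the sources used here, its counts are uncertain. Nfatc4 (chromosome 14, 55823144 to 55833943), a further NFAT family member, was barely counted: it had 5 to 28 counts in Ts65Dn;Df(17)2 libraries, 7 to 22 in Dp(16)1/Df(16)8 and 4 to 18 in +/+. Counting error alone would give a coefficient of variation of 31.9%, 30.2% and 31.3% in these genotypes in that order, so a difference such as the fold of 0.92 in Ts65Dn;Df(17)2 (95% interval 0.67 to 1.26) was not detectable at this depth.

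**Figure D2:**
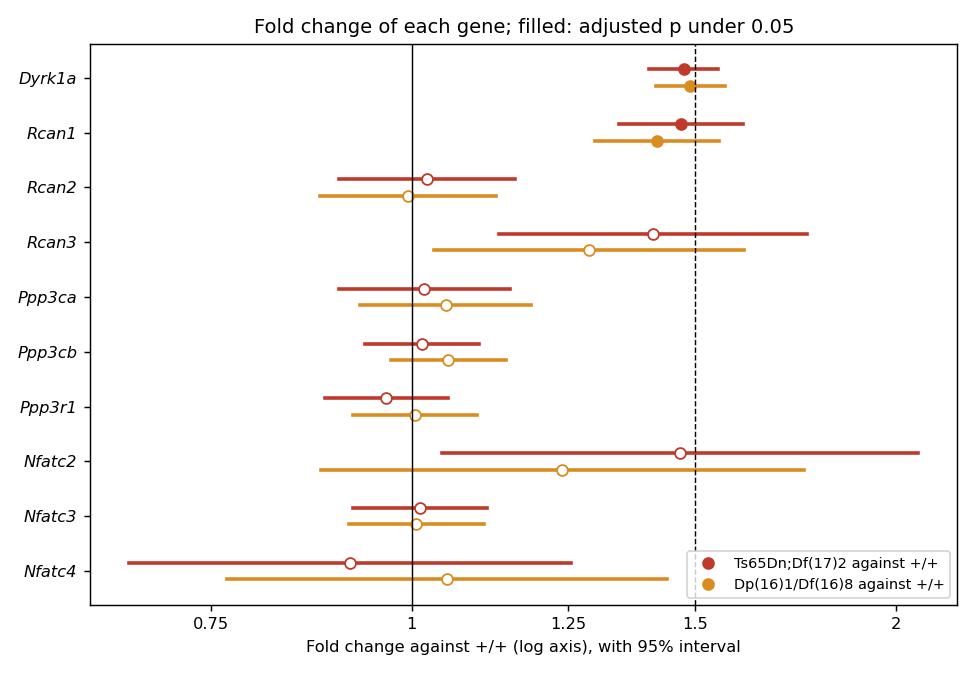
Fold change of each gene against +/+ on a log axis, with 95% intervals of edgeR's quasi-likelihood fit, for Ts65Dn;Df(17)2 (upper of each pair) and Dp(16)1/Df(16)8 (lower). Filled points passed an adjusted p of 0.05; the dashed line marks 1.5, which lies within all 4 intervals of Dyrk1a and Rcan1, while the intervals of Rcan2, the calcineurin subunits and Nfatc3 lie around 1.

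Levels per length of annotated exon (CPM per kb) place the genes on a common scale. In Ts65Dn;Df(17)2 the mean was 231 CPM per kb for Ppp3r1, 112 for Ppp3ca, 45.3 for Rcan2, 35.9 for Ppp3cb, 22.8 for Dyrk1a, 21.9 for Rcan1, 10.7 for Rcan3, 2.91 for Nfatc2, 2.21 for Nfatc3 and 0.238 for Nfatc4. The order was the same in Dp(16)1/Df(16)8, where Ppp3r1 averaged 240.4, Dyrk1a 22.99, Rcan1 21.2, Rcan3 9.77 and Nfatc2 2.45 CPM per kb. The phosphatase subunit genes Ppp3r1 and Ppp3ca thus had the highest levels per length and the NFAT genes the lowest. Neighbours in this order whose library ranges overlapped in both aneuploid genotypes were Rcan2 and Ppp3cb, Dyrk1a and Rcan1, and Nfatc2 and Nfatc3. The +/+ order differed in that the mean of Nfatc3 (2.18 CPM per kb) stood above that of Nfatc2 (1.97), again with overlapping ranges. Dyrk1a averaged 15.4, Rcan1 14.9 and Rcan3 7.63 CPM per kb in +/+, where the ranges of Rcan1 and Rcan3 overlapped, while in the aneuploid genotypes they did not.

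Within the RCAN family, Rcan1 made up 28.3% ± 2.73 of the summed CPM per kb of Rcan1, Rcan2 and Rcan3 in Ts65Dn;Df(17)2 and 28.5% ± 3.16 in Dp(16)1/Df(16)8 (SD, n = 10 each), against 22.5% ± 2.82 in +/+ (SD, n = 12). Rcan2 remained the most abundant RCAN transcript in all 3 genotypes. Ppp3ca made up 75.6% ± 2.52 of the summed Ppp3ca and Ppp3cb in Ts65Dn;Df(17)2 animals and 75.4% ± 3.67 in Dp(16)1/Df(16)8 animals, against 75.6% ± 2.99 in +/+ animals. Shares of RNA do not give shares of protein.

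**Figure D3:**
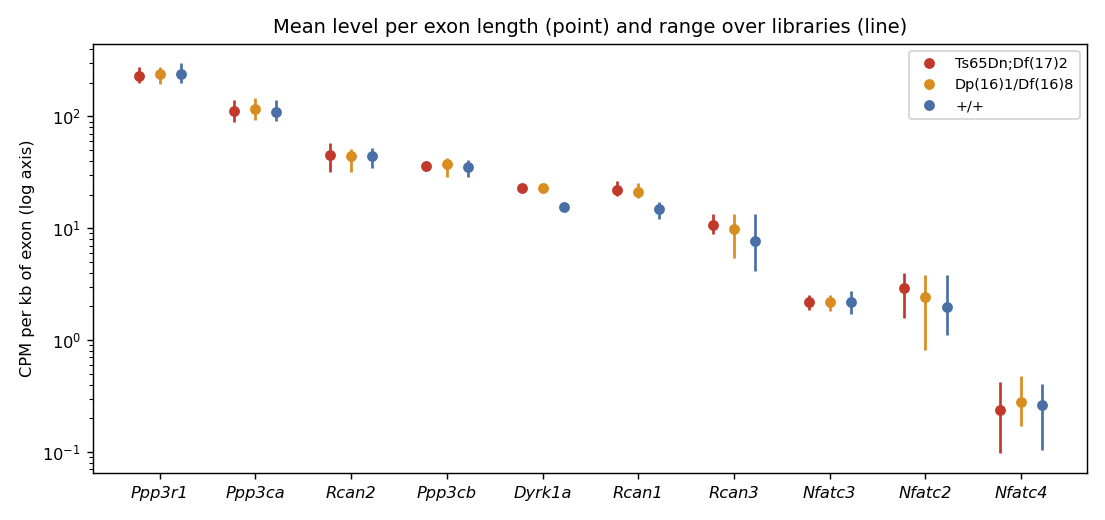
Mean level per kb of annotated exon (points, log axis) and the range over libraries (lines) for each gene, ordered by the +/+ mean, with Ts65Dn;Df(17)2 and Dp(16)1/Df(16)8 left of +/+. Levels run between about 240.04 CPM per kb for Ppp3r1 and 0.264 for Nfatc4 in +/+, and for Dyrk1a and Rcan1 the ranges of both aneuploid genotypes lie above the +/+ range while overlapping each other.

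Because striatal markers differed so widely between libraries, each gene's slope on the striatal marker level, the mean log2 CPM of the 19 markers, was tested in edgeR with genotype and sex as terms. That level averaged 6.19 ± 0.61 in Ts65Dn;Df(17)2 and 5.60 ± 1.39 in Dp(16)1/Df(16)8 (SD, n = 10 each), against 4.97 ± 1.42 in +/+ (SD, n = 12). Of the 10 genes, 4 had a slope above 0 that passed and 1 had a slope below 0 that passed. Among all tested genes 14.1% passed above 0 and 13.5% below 0. Nfatc2 followed the markers most closely, with 0.49 log2 units per log2 unit of marker level (SE 0.032, edgeR adjusted p = 5.7e-14). Rcan3 came next with 0.27 (SE 0.032, edgeR adjusted p = 4.0e-08), then Ppp3ca with 0.10 (SE 0.025, edgeR adjusted p = 0.0018).

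The other slopes were small. Rcan2 had 0.079 (SE 0.029, edgeR adjusted p = 0.043), which no longer passed with other size factors, without the filter on low counts or in +/+ alone, where it was 0.040. Dyrk1a had -0.037 (SE 0.011, edgeR adjusted p = 0.011), which did not pass in +/+ alone (-0.038, adjusted p = 0.19). Within the 12 +/+ libraries alone, where no genotype differs, Nfatc2 (0.47), Rcan3 (0.31) and Ppp3ca (0.11) still passed, with edgeR adjusted p of 1.0e-05, 0.00044 and 0.024. Rcan1 had a slope of 0.0024 (SE 0.023, edgeR adjusted p = 0.96), and with the striatal term its log2 fold change was 0.55 in Ts65Dn;Df(17)2 and 0.50 in Dp(16)1/Df(16)8. With that term the log2 fold change of Dyrk1a was 0.61 in Ts65Dn;Df(17)2 and 0.60 in Dp(16)1/Df(16)8, and both genes passed in both comparisons.

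**Figure D4:**
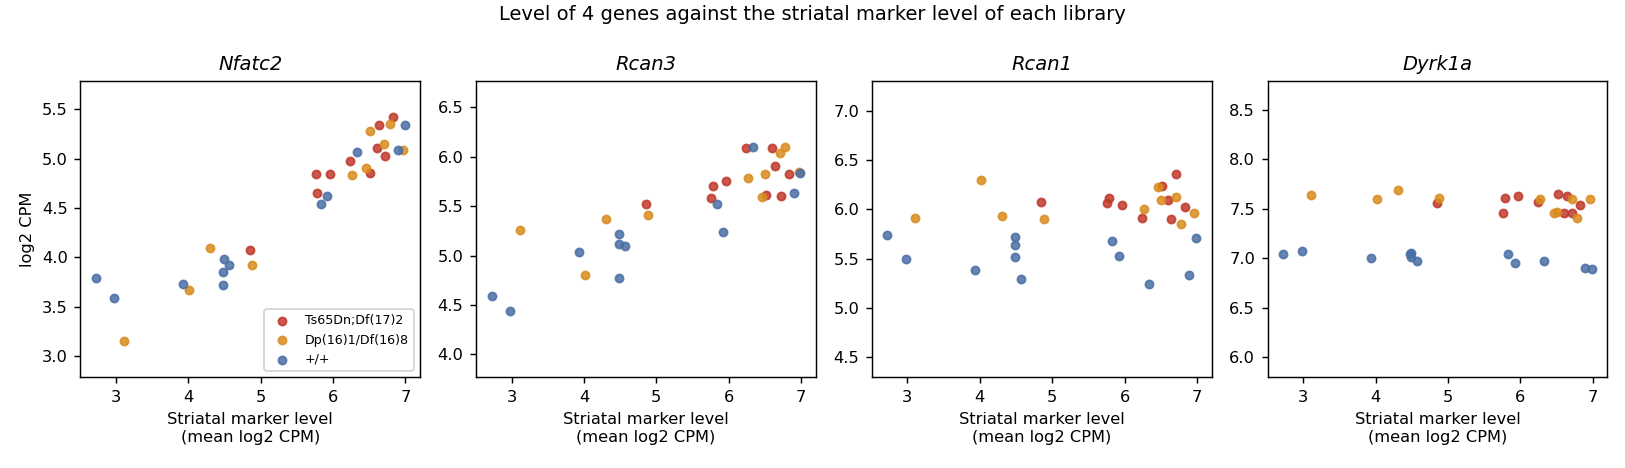
log2 CPM of Nfatc2, Rcan3, Rcan1 and Dyrk1a (vertical axes, each spanning the same number of log2 units) against the striatal marker level of each library (horizontal axes, mean log2 CPM of 19 markers), coloured by genotype. Nfatc2 and Rcan3 rise along the axis in all genotypes together, with slopes of 0.49 and 0.27, while Rcan1 and Dyrk1a form separate aneuploid and +/+ bands.

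Sex did not separate the genes. By edgeR 0 of the 10 differed between males and females at an adjusted p of 0.05, and 1, Rcan1, had an unadjusted p under 0.05 (log2 difference of males minus females -0.11, adjusted p = 0.48). Among all tested genes 0.0748% passed. The genotype by sex test called 0 of the 10 genes and 0% of all tested genes, with 677 of 16042 at an unadjusted p under 0.05. The 1 member among these was Nfatc3 (unadjusted p = 0.0037, adjusted p = 0.996), whose log2 fold change against +/+ was -0.17 in female and 0.21 in male Ts65Dn;Df(17)2 mice, and -0.16 in female and 0.18 in male Dp(16)1/Df(16)8 mice. In these fits Dp(16)1/Df(16)8 replicate 2 was kept as female by its label, against its Xist and Y-linked counts. Its Nfatc3 level of 21.5 CPM was the lowest of that genotype. Without that library, 0 of the 10 genes differed by sex and 0 passed the genotype by sex test. Dyrk1a was 1.46-fold and Rcan1 1.47-fold higher in Ts65Dn;Df(17)2 than in +/+ among females, and 1.49-fold and 1.47-fold among males.

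The wider pathway was followed in 8 lists of 108 genes, of which 97 were tested. The lists were chosen with earlier results of these data known, and they include Pcp4, a gene with the additional copy. The shares below are descriptions, and whether the 97 differ from other genes as a set was not tested. In Ts65Dn;Df(17)2 against +/+, 2 of the 97 rose, which is 2.06% of them, and 4 fell, which is 4.12%, by edgeR, where 2.22% of all tested genes fell. There 35 of the 97 (36.1%) had an unadjusted p under 0.05 in either direction, beside 21.8% of all tested genes. DESeq2 called 17 of the 97 (17.5%, beside 6.66% of all tested genes) and limma voom 5 (5.15%, beside 4.32%). With the striatal marker level as a term, edgeR called 4 (4.12%, beside 0.941%), which were Pcp4, Foxo3, Dyrk1b and Crtc1. Against the same +/+ animals, 1 rose and 0 fell in Dp(16)1/Df(16)8 by edgeR, with 23 of the 97 (23.7%) at an unadjusted p under 0.05, beside 12.8% of all tested genes. DESeq2 called 3 of the 97 in Dp(16)1/Df(16)8 (3.09%, beside 0.904% of all tested genes), and these were Pcp4, Dyrk1b and Crtc1. Limma voom called Pcp4 there (1.03%, beside 0.555%). The 1 call by edgeR was likewise 1.03%, beside 0.573% of all tested genes. With the striatal term edgeR called 3 in Dp(16)1/Df(16)8 (3.09%, beside 0.592%), which were Pcp4, Dyrk1b and Crtc1. The median log2 fold change of the 97 was -0.050 in Ts65Dn;Df(17)2 and -0.029 in Dp(16)1/Df(16)8, beside 0.0047 and 0.0014 for all tested genes. Between the aneuploid genotypes edgeR, DESeq2 and limma voom called none of the 97, and 0 had an unadjusted p under 0.05 in edgeR.

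Of 13 further calcineurin subunits, regulators and anchors, 1 rose in each aneuploid genotype and it was the same gene, Pcp4, which encodes a calmodulin-binding protein and lies on the chromosome 16 stretch itself. Pcp4 averaged 221 ± 58.6 CPM in Ts65Dn;Df(17)2 and 199 ± 68.1 CPM in Dp(16)1/Df(16)8 (SD, n = 10 each), against 107 ± 47.2 CPM in +/+ (SD, n = 12). It was 2.08-fold higher in Ts65Dn;Df(17)2 (edgeR adjusted p = 0.0050) and 1.86-fold higher in Dp(16)1/Df(16)8 (edgeR adjusted p = 0.043). Pcp4 also followed the striatal markers, with a slope of 0.41, and with the striatal term its log2 fold change was 0.62 in Ts65Dn;Df(17)2, against 1.06 without it, and 0.65 in Dp(16)1/Df(16)8, against 0.90, passing in both fits.

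Of 7 kinases that phosphorylate NFAT, 1 fell in Ts65Dn;Df(17)2: Csnk1e, a casein kinase 1 gene, which averaged 72.0 ± 4.92 CPM in Ts65Dn;Df(17)2 and 78.0 ± 10.2 CPM in Dp(16)1/Df(16)8, against 85.8 ± 11.4 CPM in +/+ (log2 fold change -0.25 in Ts65Dn;Df(17)2, SE 0.062, edgeR adjusted p = 0.022). Csnk1e was at -0.13 in Dp(16)1/Df(16)8 without passing (edgeR adjusted p = 0.37). None of 3 other NFAT-related genes passed with edgeR, DESeq2 or limma voom, and 0 had an unadjusted p under 0.05. These were Nfatc1, Nfat5 and Nfatc2ip, the last of which encodes an NFAT-interacting protein and not an NFAT factor. Of 6 other DYRK and HIPK kinases 0 passed with edgeR and limma voom in either genotype, with 1 at an unadjusted p under 0.05 and 1 passing with DESeq2 in each. That gene was Dyrk1b, the closest relative of Dyrk1a, which averaged 33.3 ± 2.55 CPM in Ts65Dn;Df(17)2 and 32.02 ± 3.02 CPM in Dp(16)1/Df(16)8 (SD, n = 10 each), against 39.1 ± 5.91 CPM in +/+ (SD, n = 12). Its log2 fold change was -0.23 in Ts65Dn;Df(17)2 (edgeR adjusted p = 0.058) and -0.29 in Dp(16)1/Df(16)8 (edgeR adjusted p = 0.056). With the striatal term in edgeR it passed in both, at -0.33 in Ts65Dn;Df(17)2 (adjusted p = 0.0036) and -0.34 in Dp(16)1/Df(16)8 (adjusted p = 0.0012). Of 23 partners and substrates of DYRK1A, 0 passed with edgeR and limma voom in Ts65Dn;Df(17)2, 5 had an unadjusted p under 0.05, which is near the share of all tested genes given above, and 3 passed with DESeq2. The same list had, in Dp(16)1/Df(16)8, 0 passing with any of these tools and 4 at an unadjusted p under 0.05.

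Of 20 calcineurin substrates, 1 rose and 3 fell in Ts65Dn;Df(17)2 by edgeR, where 12 had an unadjusted p under 0.05, DESeq2 called 6 and limma voom 3. For Dp(16)1/Df(16)8, edgeR and limma voom called 0, DESeq2 called 1 and 7 had an unadjusted p under 0.05. By comparison, edgeR, DESeq2 and limma voom called 3.97%, 6.66% and 4.32% of all tested genes in Ts65Dn;Df(17)2, where 21.8% had an unadjusted p under 0.05. In Dp(16)1/Df(16)8 DESeq2 called 0.904% of all tested genes and 12.8% had an unadjusted p under 0.05. The 20 include Ppp1r1b, also 1 of the 19 striatal markers, and Mef2c, also 1 of the 10 markers of cortical excitatory neurons. Gria1, an AMPA receptor subunit gene, averaged 605 ± 55.7 CPM in Ts65Dn;Df(17)2 and 545 ± 67.9 CPM in Dp(16)1/Df(16)8, against 480.3 ± 87.9 CPM in +/+ (log2 fold change 0.34 in Ts65Dn;Df(17)2, edgeR adjusted p = 0.026). Foxo3, a transcription factor of stress responses, averaged 121 ± 10.4 CPM in Ts65Dn;Df(17)2 and 132 ± 16.1 CPM in Dp(16)1/Df(16)8, against 151 ± 17.0 CPM in +/+ (log2 fold change -0.32 in Ts65Dn;Df(17)2, edgeR adjusted p = 0.0034). Elk1, a transcription factor of the serum response, and Map3k5, a stress-activated kinase, fell by 0.19 and 0.35 on the log2 scale in Ts65Dn;Df(17)2 (edgeR adjusted p = 0.032 and 0.0496). All 4 stood on the same side of +/+ in Dp(16)1/Df(16)8 without passing, between -0.20 for Foxo3 and 0.19 for Gria1. With the striatal marker level as a term in edgeR, Foxo3 still passed in Ts65Dn;Df(17)2 (adjusted p = 0.023), and Gria1, Elk1, Map3k5 and the kinase Csnk1e did not (adjusted p = 0.18, 0.17, 0.42 and 0.20). Crtc1, which encodes a coactivator of CREB, was at -0.15 in Ts65Dn;Df(17)2 and -0.18 in Dp(16)1/Df(16)8 on the log2 scale without passing in edgeR (adjusted p = 0.063 and 0.090). With the striatal term it passed at -0.21 in both (edgeR adjusted p = 0.011 in Ts65Dn;Df(17)2 and 0.0064 in Dp(16)1/Df(16)8).

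Of 17 genes listed for calcium entry and release, 0 passed with edgeR and limma voom in either genotype, with 4 at an unadjusted p under 0.05 in each. DESeq2 called 3 of the 17 in Ts65Dn;Df(17)2 and 0 in Dp(16)1/Df(16)8. The list also holds genes of calmodulin-dependent kinases, Camk2a, Camk2b and Camk4. Of 20 genes described as NFAT targets, 12 were tested, since cytokine genes such as Il2 and Tnf did not reach the filter. None of the 12 passed with edgeR or limma voom in Ts65Dn;Df(17)2, 5 had an unadjusted p under 0.05 and DESeq2 called 1. None passed in Dp(16)1/Df(16)8 with edgeR, limma voom or DESeq2, and 2 had an unadjusted p under 0.05. Beside both lists, 21.8% of all tested genes in Ts65Dn;Df(17)2 and 12.8% in Dp(16)1/Df(16)8 had an unadjusted p under 0.05. DESeq2 called 6.66% and 0.904% of all tested genes in these genotypes in that order. In Ts65Dn;Df(17)2 all 12 fold changes lay below 0, between -0.57 for Egr3 and -0.011 for Vegfa, with a median of -0.16 on the log2 scale. For Dp(16)1/Df(16)8, 4 of the 12 lay above 0 and the median was -0.13. The medians of all tested genes were 0.0047 in Ts65Dn;Df(17)2 and 0.0014 in Dp(16)1/Df(16)8. Whether the 12 differ from other genes as a set was not tested. Some of these genes also follow the striatal marker level, among them Bdnf with a slope of -0.35, and Egr3 with -0.22. With the striatal term the log2 fold change in Ts65Dn;Df(17)2 was -0.012 for Bdnf, against -0.51 without it, and -0.26 for Egr3, against -0.57.

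**Figure D5:**
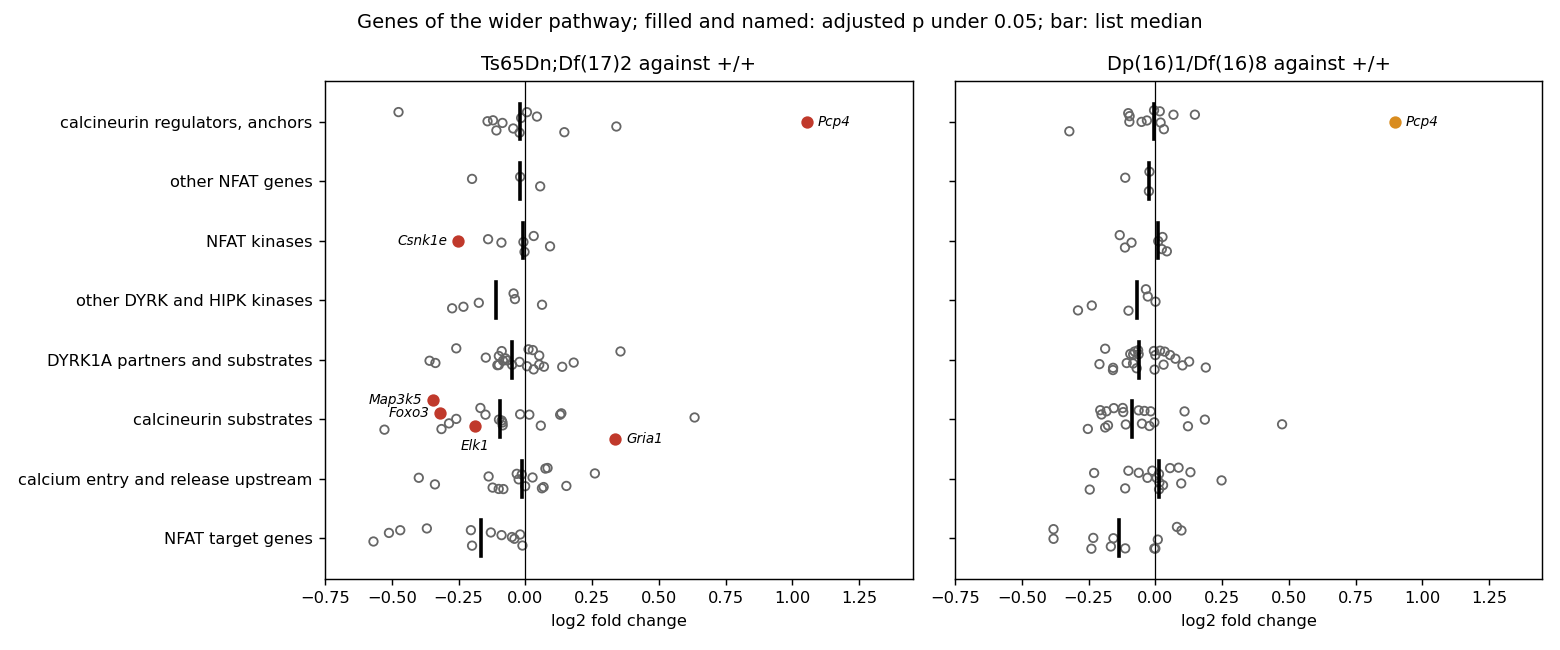
log2 fold change against +/+ (horizontal axes) of every tested gene of the 8 lists (rows), in Ts65Dn;Df(17)2 on the left and in Dp(16)1/Df(16)8 on the right. Open points did not pass, filled and named points passed an adjusted p of 0.05, and black bars are list medians; 6 genes passed in Ts65Dn;Df(17)2 and Pcp4 alone in Dp(16)1/Df(16)8, and the points for NFAT target genes in Ts65Dn;Df(17)2 all lie left of 0. Over all tested genes, which are not drawn, the median was 0.0047 in Ts65Dn;Df(17)2 and 0.0014 in Dp(16)1/Df(16)8.

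Genes whose level varied most like that of Dyrk1a and of Rcan1 from animal to animal were ranked by the Pearson correlation of log2 CPM over the 32 libraries after the genotype and sex means were removed, among tested genes with a mean log2 CPM of at least 3. For Dyrk1a the leading 5 were Mars2 (r = 0.79, Spearman's rho = 0.71), Npy1r (0.78, 0.73), Sema3a (0.78, 0.72), Rasgrf2 (0.76, 0.62) and Lnpep (0.74, 0.75). For Rcan1 they were Ezr (0.68, 0.68), Pde4dip (0.68, 0.65), Acap2 (0.67, 0.59), Rbm18 (0.67, 0.60) and Dio2 (0.66, 0.68). The lists share no gene, and the residuals of Dyrk1a and Rcan1 had a correlation of 0.035 with each other. These are descriptions of the top of a ranked list, for which no p is given, and all genes share the 32 libraries, their scaling and their tissue composition. When the striatal marker level was removed too, 2 of the leading 5 remained for Dyrk1a (Mars2 and Npy1r) and 0 for Rcan1. The correlations themselves moved otherwise. The 5 genes named above for Rcan1 then had r of 0.67 to 0.69, little changed. Those named for Dyrk1a had lower r than before, 0.56 to 0.65.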

How the data were processed

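Cortical RNA of 32 mice, separate animals by their label numbers, was sequenced after removal of ribosomal RNA, per the labels' protocols. The authors deposited 1 table of raw counts per gene. Per the submitters' processing notes, the tools were STAR 2.7.9a, bcl2fastq 2.20, and Subread 1.6.4 with featureCounts, and the builds named are GRCh38 and GRCm38.p6; which did what, how strand was set and which annotation release was used are not given in the sources used here.

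From these counts, genes were filtered by filterByExpr (16042 of 55401 kept) and fitted with edgeR 4.0.16 in R 4.3.3 on all 32 libraries with TMM scaling, genotype and sex as terms. Quasi-likelihood F tests were adjusted by the Benjamini-Hochberg method over all tested genes (threshold 0.05). A standard error is the log2 fold change divided by the square root of F. CPM uses the scaled library sizes, and log2 CPM a prior count of 2. Levels of the marker lists use unscaled library totals. Coordinates and exon lengths come from GENCODE M21 (GRCm38); 55141 identifiers matched. Alternatives were DESeq2 1.42.0, limma 3.58.1 (voom), other size factors, no filter, other covariates, and leaving out each library. The script was tested on simulated data.

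The members, lists and tests were chosen with earlier results of these data known. All 10 members are named in each comparison; of each pathway list, genes past the threshold are named, up to 6 by smallest adjusted p, and Bdnf, Egr3, Vegfa, Dyrk1b and Crtc1 were named after their values were seen. For likeness, the 5 genes with the highest correlation are named.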

Additional observations from a re-analysis of the deposited data

Results flagged for a closer look

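In 20 groups of 10 genes and the 2 aneuploid genotypes, a single library stood apart once, judged on log2 CPM. Rcan2 in Ts65Dn;Df(17)2 replicate 4 was the lowest of 10 at 139.8 CPM, with the next library at 187 CPM. On the log2 scale the gap was 0.48 of the group's whole range. Chance flags about 1 in 20 such groups. The same library had the lowest striatal marker level of its genotype, 4.85, against a genotype mean of 6.19. A link between these values was not tested. The +/+ group, with 12 libraries, was not checked, because the thresholds set for this check covered groups of at most 10 libraries.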

How the results depend on the processing

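Dyrk1a and Rcan1 passed in both comparisons with +/+ under every alternative run. Their log2 fold changes without any single library lay between 0.55 and 0.57 (Dyrk1a) and between 0.53 and 0.58 (Rcan1) in Ts65Dn;Df(17)2, and between 0.56 and 0.59 (Dyrk1a) and between 0.48 and 0.53 (Rcan1) in Dp(16)1/Df(16)8. With 5 blocks of animal numbers as terms they were 0.604 and 0.597 in Ts65Dn;Df(17)2 and 0.544 and 0.478 in Dp(16)1/Df(16)8. The blocks were not balanced over genotype. Ts65Dn;Df(17)2 animals were absent from most blocks, and the lowest-numbered ones formed a block without other genotypes. All fits with blocks therefore separate Ts65Dn;Df(17)2 from block only in part. Members that varied with the striatal marker level numbered 5, and 3 in +/+ alone, a fit of fewer samples. No paired analysis was possible because the labels give the genotypes no shared replicate numbers; blocks of animals with neighbouring label numbers were fitted instead.

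Some differences that did not pass changed sign, most of them close to 0; those of Nfatc2 in Dp(16)1/Df(16)8 (0.31) and of Nfatc2 and Rcan3 between the aneuploid genotypes (0.24 and 0.13) were not. With the striatal term, log2 fold changes in Ts65Dn;Df(17)2 were -0.069 for Rcan2, -0.10 for Ppp3ca and -0.0064 for Nfatc3. For Dp(16)1/Df(16)8 they were -0.014 for Nfatc2 and -0.0026 for Nfatc3, and between the aneuploid genotypes 0.0096 for Dyrk1a, -0.0051 for Rcan2 and -0.0038 for Nfatc3. With blocks of animal numbers they were -0.046 for Ppp3ca in Ts65Dn;Df(17)2, 0.046 for Rcan2 and -0.0092 for Ppp3r1 in Dp(16)1/Df(16)8, and 0.060 for Dyrk1a, -0.025 for Rcan2, -0.17 for Rcan3 and -0.20 for Nfatc2 between the aneuploid genotypes. Without the 2 lowest-numbered Ts65Dn;Df(17)2 animals, Ppp3cb was at -0.014 in that genotype. The Rcan1 slope was -0.00013 with DESeq2 size factors, -8.1e-05 without the filter and -0.0099 in +/+ alone. Leaving out 1 library gave, in Ts65Dn;Df(17)2, -0.013 to 0.082 for Rcan2, -0.018 to 0.061 for Ppp3ca, -0.0049 to 0.040 for Ppp3cb and -0.015 to 0.054 for Nfatc3. For Dp(16)1/Df(16)8 it gave -0.040 to 0.039 for Rcan2, -0.015 to 0.043 for Ppp3r1, -0.021 to 0.046 for Nfatc3 and -0.036 to 0.15 for Nfatc4. Between the aneuploid genotypes it gave -0.030 to 0.0034 for Dyrk1a, -0.0072 to 0.090 for Rcan2, -0.087 to 0.0047 for Ppp3ca and -0.020 to 0.034 for Nfatc3. The cause of these changes was not tested.

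The background counts moved more than the members. Genes changed in Ts65Dn;Df(17)2 numbered 637, against 331 without the filter, 151 with the striatal term, 92 with blocks, 280 without those 2 animals and 1069 with DESeq2. They numbered 264 to 1486 without 1 library, moving over 1.5 times without Ts65Dn;Df(17)2 replicate 2, 4, 7, 8 or 9 and +/+ replicate 1, 4, 5, 6, 7, 9, 10 or 11. Genes changed in Dp(16)1/Df(16)8 numbered 92, against 256 with blocks and 145 with DESeq2, and 222 without Dp(16)1/Df(16)8 replicate 1 or 165 without +/+ replicate 11. Between the aneuploid genotypes 8 became 5 with blocks. The likeness ranking with striatal level removed was chosen after seeing the data. At 4 to 28 counts a library, depth limits what can be detected for Nfatc4.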
